A study of Mus musculus with 12 samples.

Results

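The cell cycle and proliferation genes described here are 40 genes chosen by name, of the 54532 genes in the count table. All 40 were found in it by gene symbol and were followed in all 12 RNA-seq libraries. The mice were male and received a single tail-vein injection at 10 weeks of age of adeno-associated virus serotype 8 (AAV8), in which a thyroxin-binding globulin promoter, active in hepatocytes, drove either no insert (null) or full-length human hexokinase domain containing 1 (hHKDC1 OE). All groups were then kept on a low-fat diet for 16 weeks. Liver and subcutaneous fat were sequenced with 3 libraries for each vector and tissue, giving the groups null liver, hHKDC1 OE liver, null fat and hHKDC1 OE fat. The comparisons ask whether genes of DNA replication and mitosis differed with hHKDC1 OE in the liver, where the vector is expressed, in fat, and between the tissues.

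The libraries held 15496019 to 19954971 counted reads. Per the study, the fat libraries of a group come from separate mice. For liver no source used here says so, and the p-values there measure the spread between these samples, which may be technical. Levels are given as normalised CPM, that is counts scaled by the library total and its TMM factor, and replicate libraries are listed in the order 1, 2, 3. The 10 hepatocyte markers summed to 95590 to 160400 CPM in the liver libraries and to 556 to 5485 CPM in the fat libraries. The 8 adipocyte markers summed to 11680 to 18190 CPM in fat and to 37.1 to 78.0 CPM in liver, so the marker levels followed the tissue labels. The endogenous mouse Hkdc1 gene had 0 to 8 counts in every library and the human insert was not analysed here, so the targeted gene gives no check of the vector labels. For hHKDC1 OE libraries 2 and 3 of each tissue, 1 label field reads knockout while the titles and treatment read overexpression, and the titles were followed.

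The hHKDC1 OE fat libraries 1 and 3 stood apart by their lymphocyte RNA. The 24 B cell and T cell markers summed to 1284, 86.3 and 1129 CPM in the hHKDC1 OE fat libraries and to 14.8, 12.5 and 24.0 CPM in the null ones, against 24.7 to 44.9 CPM over the 6 liver libraries. The counts called, the counts at an unadjusted p and the medians by role in the comparisons with hHKDC1 OE fat are therefore also given without this pair, with the lone library 2 assumed to vary like the other libraries of the comparison. In bulk tissue, fewer cells of a type and less RNA of a gene per cell cannot be told apart.

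A cell that divides first licenses its replication origins with the Mcm2 to Mcm7 helicase and then copies its DNA with the sliding clamp Pcna at the fork, while nucleotide enzymes such as Rrm2 and Tk1 supply the building blocks. Genes of this S-phase step are switched on mainly by E2F factors, whereas genes of mitosis, including the cyclin B and Cdk1 kinase and the spindle machinery, carry CHR and CCAAT elements and peak later through the DREAM and B-Myb-FoxM1 complexes. In adult liver and fat most parenchymal cells are quiescent, and the CHR-bearing genes are held low by DREAM.

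The promoters are shown because those of replication genes and of mitotic kinases differ in the E2F and CHR letters named above. Of the 40 members, 33 matched the RefSeq promoter table (GRCm38.p6) by symbol, with 35 promoter sequences of 250 bases before and 50 after the start. Aurkb, Ccna2, Ccnd1, Ccne2, Foxm1, Mcm4 and Tpx2 have no entry. The searched letters were, on both strands, TTTCCCGC, TTTCGCGC, TTTGCCGC or TTTGGCGC for E2F, TTTGAA or TTCGAA for CHR, and CCAAT. The 200 bases before the start are printed below, 5′ to 3′ on the minus strand of the chromosome, with every match in capitals. Mcm6 (chr1:128359706-128359905) stands for the replication genes with an E2F match, Cdk1 (chr10:69352913-69353112) for a gene with all 3 motifs, Mki67 (chr7:135716380-135716579) and Top2a (chr11:99024190-99024389) for the mitotic genes with CHR and CCAAT matches, and Tk1 (chr11:117826015-117826214), the member furthest lower in fat than in liver, for a stretch without a match.
Mcm6: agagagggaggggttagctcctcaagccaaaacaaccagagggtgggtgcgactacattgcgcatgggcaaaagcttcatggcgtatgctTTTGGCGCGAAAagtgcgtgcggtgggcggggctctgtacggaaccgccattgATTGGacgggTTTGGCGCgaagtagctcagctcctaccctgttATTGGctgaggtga
Cdk1: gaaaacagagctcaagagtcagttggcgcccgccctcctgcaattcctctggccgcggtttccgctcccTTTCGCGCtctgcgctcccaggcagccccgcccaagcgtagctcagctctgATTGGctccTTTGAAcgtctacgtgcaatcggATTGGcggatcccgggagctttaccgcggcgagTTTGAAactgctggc
Mki67: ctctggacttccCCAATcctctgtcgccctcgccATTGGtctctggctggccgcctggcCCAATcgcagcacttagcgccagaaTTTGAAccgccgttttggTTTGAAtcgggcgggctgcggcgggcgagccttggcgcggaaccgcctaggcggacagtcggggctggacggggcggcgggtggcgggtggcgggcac
Top2a: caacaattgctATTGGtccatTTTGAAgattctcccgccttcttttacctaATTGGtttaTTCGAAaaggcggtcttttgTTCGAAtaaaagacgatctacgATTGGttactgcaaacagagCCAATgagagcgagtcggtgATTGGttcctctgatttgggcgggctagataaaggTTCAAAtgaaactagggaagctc
Tk1: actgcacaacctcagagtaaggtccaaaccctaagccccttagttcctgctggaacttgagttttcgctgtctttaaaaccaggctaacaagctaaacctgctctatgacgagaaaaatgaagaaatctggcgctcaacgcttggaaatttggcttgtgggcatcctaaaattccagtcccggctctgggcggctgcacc

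An E2F match stood in 9 of the 35 member promoters (25.7%) and in 2.26% of all 32851 promoters of the table. A CHR match stood in 15 of 35 (42.9%) against 19.2% of all, and a CCAAT match in 26 of 35 (74.3%) against 37.4%. Both CHR and CCAAT were found in 15 of 35 (42.9%) against 7.52%. By role, the E2F letters were in 6 of 10 promoters of replication fork and licensing genes and in 0 of 7 promoters of mitotic kinases, checkpoint and anaphase genes, whereas the CHR letters were in 3 of 10 and 6 of 7. The CCAAT letters were common to both, in 8 of 10 and 6 of 7. The 4 nucleotide supply promoters held 0 E2F and 0 CHR matches, and 2 of them had none of the 3 motifs. A match is only a string of letters, and 1 pair of matches of different motifs shares bases.

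All 40 members are annotated as protein-coding. In GRCm38 coordinates, Pcna lies at chr2:132249162-132253314, Mki67 at chr7:135689784-135716361, Top2a at chr11:98992943-99024189, Ccnd1 at chr7:144929931-144939925, Mcm3 at chr1:20802968-20820312 and Tk1 at chr11:117815526-117826092, all on the minus strand. Levels were first compared between members per gene length, in the deposited FPKM. These are read fragments scaled by gene length and by size factors over all 12 libraries. Pcna, the sliding clamp, was the highest member in all 4 groups, at 17.4 ± 4.59 FPKM in hHKDC1 OE fat, 17.1 ± 4.33 in null liver, 13.2 ± 1.74 in hHKDC1 OE liver and 11.9 ± 1.37 in null fat (mean ± SD, n = 3 here and below). In null liver it was followed by thymidine kinase Tk1 at 7.77 ± 1.94 FPKM, the ribonucleotide reductase subunit Rrm2 at 4.64 ± 1.00 FPKM, cyclin D1 (Ccnd1) at 3.35 ± 1.82 FPKM and the helicase subunit Mcm7 at 3.21 ± 0.14 FPKM. Pcna and Tk1 were each separated from the next member by their SDs, whereas Rrm2 from Ccnd1 and Ccnd1 from Mcm7 were not. In null fat, Pcna was followed by Mcm7 at 4.49 ± 0.29 FPKM, and then by Mcm4 at 2.69 ± 0.63, Cdc45 at 2.52 ± 0.31, Ccnd1 at 2.49 ± 0.32 and E2f1 at 2.18 ± 1.00 FPKM. The last 4 could not be separated by their SDs. The proliferation marker Mki67 took place 33 of 40 in null liver, 18 in null fat, 30 in hHKDC1 OE liver and 14 in hHKDC1 OE fat. The lowest members were the kinetochore motor Cenpe in null liver at 0.0096 FPKM and the checkpoint kinase Bub1 in null fat at 0.068 FPKM.

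Over the libraries, the summed level of the 40 members was 232, 200.1 and 195 CPM in null liver, 193, 191 and 160.3 CPM in hHKDC1 OE liver, 201, 169.8 and 193 CPM in null fat, and 430.3, 217 and 504 CPM in the hHKDC1 OE fat libraries. The hHKDC1 OE fat libraries 1 and 3 lay above every other library, while library 2 lay inside the range of null liver. The sums are weighted to the few abundant members such as Pcna and say little of the low mitotic genes. The heat map of all members by library shows the same libraries standing out in most rows, while Tk1, Rrm2, Tyms, Ccnd1, Pcna, E2f1, Cdc45, Ccne2, Ccnb1 and Aurka have another library among their 2 highest.

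**Figure D1:**
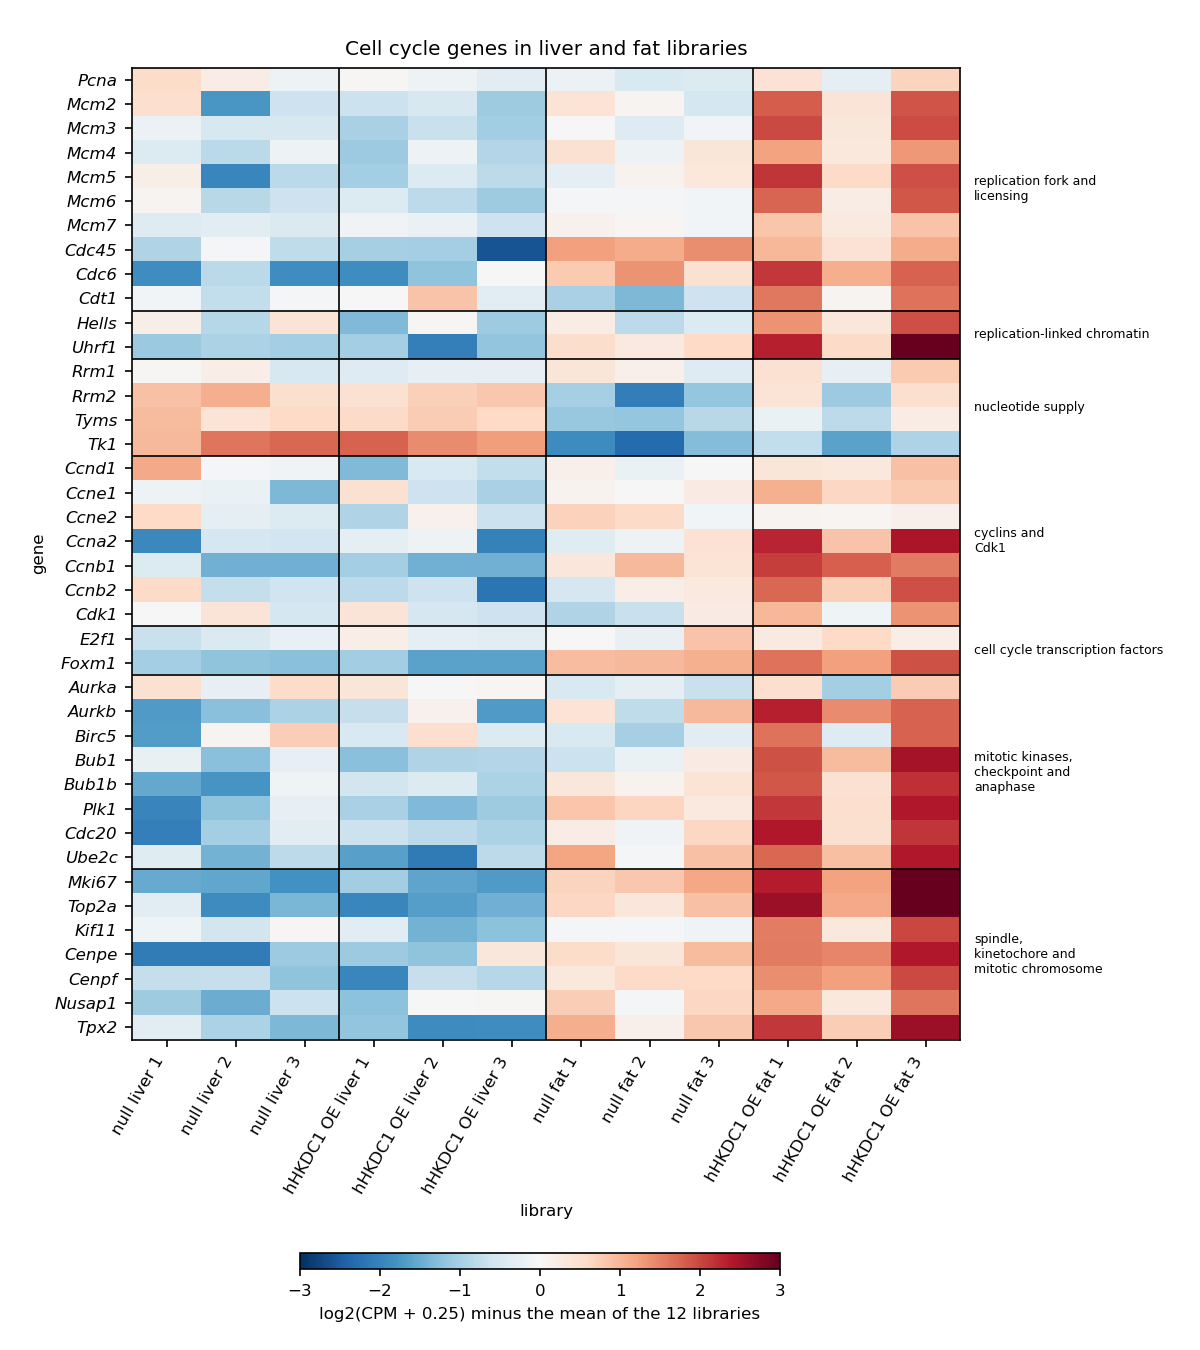
Level of the 40 members (rows, grouped by role) in the 12 libraries (columns), as log2(CPM + 0.25) minus the mean of the row, on a colour scale from -3 to 3. The hHKDC1 OE fat libraries 1 and 3 are the high columns for most rows, and Tk1, Rrm2 and Tyms are rows that are higher in null liver than in null fat.

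In null mice, the members divided by role between the tissues: 6 of 7 spindle and mitotic chromosome genes were higher in fat, and 3 of 4 nucleotide enzymes were higher in liver. Of the 40 members, 38 passed the filter on low counts (Aurkb and Bub1 did not), 14 were higher in fat, 4 were lower and 20 did not pass the test (edgeR's quasi-likelihood test, Benjamini-Hochberg adjusted p under 0.05 over 15259 genes). Over all genes tested, 33.8% were higher and 30.5% lower in fat, so the share of members called higher was close to that of all genes and the share called lower was below it. The median log2 difference was 0.68 for the members and 0.09 for all genes tested. These values depend on the scaling. With library size alone the median of all genes moved to 0.98, 26 members were higher and 3 lower (59.1% and 15% of all genes), and 7 members turned from below to above 0 (Pcna, Cdt1, Hells, Ccnd1, Cdk1, Aurka and Birc5), of which Pcna alone had been called.

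The spindle, kinetochore and mitotic chromosome genes were mostly higher in fat, with 6 of 7 called higher in null fat than in null liver and a median log2 difference of 1.85. Mki67, which coats mitotic chromosomes, was at 1.21, 1.16 and 0.926 CPM in null liver and at 6.30, 7.003 and 8.98 CPM in null fat. All 3 fat libraries lay above all 3 liver libraries, and the log2 difference was 2.76 ± 0.31 (SE, edgeR's quasi-likelihood test, Benjamini-Hochberg adjusted p = 1.29e-04). Top2a, the topoisomerase that untangles sister chromatids, was at 2.33, 0.622 and 1.01 CPM in null liver and at 4.74, 3.84 and 5.76 CPM in null fat. These ranges did not overlap either, with 1 liver library nearer to fat than the others, and the log2 difference was 1.85 ± 0.49 (edgeR's quasi-likelihood test, adjusted p = 0.0107). The centromere protein Cenpf (1.95 ± 0.52), the spindle assembly factor Tpx2 (1.84 ± 0.51) and the microtubule bundler Nusap1 (1.79 ± 0.48) were also higher in fat, whereas the spindle motor Kif11 was at 1.44 ± 0.0535 CPM in null fat and 1.32 ± 0.315 CPM in null liver and did not pass.

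Of the mitotic kinases, checkpoint and anaphase genes, 6 of 8 were tested, and the anaphase ubiquitin enzyme Ube2c (log2 difference 1.75 ± 0.50) and polo-like kinase Plk1 (2.25 ± 0.83) were higher in fat, called in 10 and 6 of 12 alternative settings (other scalings, filters and fits, and each library left out). Ube2c shares 592 bases, 22.8% of its exons, with Tnnc2, which was listed at 0 in every group. Among the transcription factors, Foxm1, the activator of the mitotic genes, was higher in null fat (2.86 ± 0.44), with 2.13 ± 0.116 CPM against 0.288 ± 0.0497 CPM in null liver. E2f1, the S-phase activator, was at 3.28, 3.91 and 4.55 CPM in null liver and at 5.34, 4.59 and 9.94 CPM in null fat. All 3 fat libraries lay above the liver range, library 2 by very little, and the log2 difference of 0.76 ± 0.36 did not pass (edgeR's quasi-likelihood test, adjusted p = 0.0968).

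The cyclins and Cdk1 gave 1 call of 7 between the null tissues, Ccnb1, which held in 8 of 12 alternative settings. It ended with the replicate number in the fit and without null liver library 2 or 3 or null fat library 2. The mitotic cyclin Ccnb1 had 3 reads over the null liver libraries and 55 over the null fat libraries, a ratio of normalised levels of 8.91 (exact 95% interval 2.89 to 44.5, counting error only). By library it was at 0.259, 0 and 0 CPM in null liver and at 0.608, 1.07 and 0.653 CPM in null fat, so the groups did not overlap. Cdk1, its kinase, was at 1.90, 2.58 and 1.26 CPM in null liver and at 0.912, 1.12 and 2.34 CPM in null fat. Those ranges overlapped, with fat library 3 inside the liver range and the other two fat libraries below it (log2 difference -0.38 ± 0.51, not called, and 0.53 with library size alone). Ccnd1, the growth-signal cyclin of G1, was at 25.5, 11.2 and 10.7 CPM in null liver and at 12.6, 9.99 and 11.4 CPM in null fat. A single null liver library was high and the rest of both groups lay together, with a log2 difference of -0.47 ± 0.34 that did not pass (0.44 with library size alone).

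Of the 10 replication fork and licensing genes, Cdc45 (1.88 ± 0.32), Cdc6 and Mcm7 (0.43 ± 0.15) were higher in null fat and Pcna was lower. Cdc45 and Cdc6 were called in all 12 alternative settings, Mcm7 in 5 and Pcna in 6, and leaving out null liver library 1 or 2 or null fat library 2 ended both of the last calls. The licensing ATPase Cdc6 had 3 reads over the null liver libraries and 102 over the null fat libraries, a ratio of 16.5 (exact 95% interval 5.50 to 81.4, counting error only), and the kinetochore motor Cenpe gave the same counts. Pcna was at 51.6, 40.7 and 31.6 CPM in null liver and at 31.1, 25.5 and 26.5 CPM in null fat. The groups were separated by less than 1 CPM, and the log2 difference was -0.57 ± 0.19 (edgeR's quasi-likelihood test, adjusted p = 0.0287) but 0.32 with library size alone (adjusted p = 0.132). Set against the median of all genes, Pcna was at -0.66 and -0.65 under the 2 scalings. Mcm2, a subunit of the replicative helicase, was at 8.02, 1.51 and 3.54 CPM in null liver and at 7.60, 5.93 and 3.80 CPM in null fat, with overlapping ranges and a log2 difference of 0.41 ± 0.56. The hemimethylated-DNA reader Uhrf1 was higher in fat (1.76 ± 0.36).

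The nucleotide supply genes ran the other way, with 3 of 4 lower in null fat. Tk1 was at 28.8, 44.8 and 48.5 CPM in null liver and at 3.78, 2.77 and 5.80 CPM in null fat. The tissues were far apart in every library, and the log2 difference was -3.30 ± 0.32 (edgeR's quasi-likelihood test, adjusted p = 6.44e-05). Rrm2 was also lower (-2.26 ± 0.35), as was the thymidylate synthase Tyms (-1.78 ± 0.26), while the large reductase subunit Rrm1 was at 16.6 ± 4.18 CPM in fat and 15.2 ± 3.54 CPM in liver. These 3 calls kept their direction with library size alone. Tk1 shares 83 exonic bases (1.6% of its exons) with Afmid on the opposite strand, and the libraries were not strand-specific, so reads from that stretch cannot be told apart. Afmid was at 48.6 CPM in null liver and 2.52 CPM in null fat on average, against 40.7 and 4.11 CPM for Tk1, and its part in the result was not tested.

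In liver, the tissue that the promoter of the vector targets, none of the members passed the test between hHKDC1 OE and null. Of the 40 members, 27 passed the filter on low counts, and the 13 left out were mostly mitotic genes at under 1 CPM (Cdc6, Uhrf1, Ccnb1, Ccnb2, Foxm1, Aurkb, Bub1, Bub1b, Plk1, Cdc20, Cenpe, Cenpf and Tpx2). The count called was 0 of 27, with 0% of the 13351 genes tested called in either direction by edgeR's quasi-likelihood test. At an unadjusted p under 0.05 there was 1 member, Ccnd1, which was lower (3.05% of all genes were lower at that level and 3.89% higher), and DESeq2 also called 0 members (smallest adjusted p = 0.0981, with 0.315% of all genes higher and 0.36% lower). The median log2 difference of the tested members was -0.17 and that of all genes was 0.01.

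Ccnd1 was at 25.5, 11.2 and 10.7 CPM in null liver and at 4.44, 8.20 and 6.77 CPM in hHKDC1 OE liver. The groups did not overlap, with null liver library 1 far above the other libraries, and the log2 difference was -1.25 ± 0.37 (edgeR's quasi-likelihood test, adjusted p = 0.520). Without a filter on low counts the same edgeR test called it (adjusted p = 2.8e-04, with 0.593% of all genes lower and 0.726% higher), while over all alternatives the log2 difference ran from -1.47 to -0.74 with adjusted p up to 0.995. Ccnd1 shares 1100 bases (23.4% of its exons) with LTO1, which was at 12.4 CPM in null and 11.8 CPM in hHKDC1 OE liver. Lower in all 3 hHKDC1 OE liver libraries than in any null library were also the helicase subunit Mcm3 (-0.52 ± 0.28) and the helicase partner Cdc45 (-0.96 ± 0.59), neither of which passed. This was 3 of the 27 tested members with ranges lower and 0 higher, where 7.15% and 5.46% of all genes tested were so.

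Pcna, which marks replicating nuclei, was at 51.6, 40.7 and 31.6 CPM in null liver and at 36.2, 31.8 and 28.3 CPM in hHKDC1 OE liver. The ranges overlapped and the hHKDC1 OE libraries lay at the lower end, with a log2 difference of -0.34 ± 0.19 (edgeR's quasi-likelihood test, adjusted p = 0.790). Mki67 was at 1.76, 1.13 and 1.02 CPM in hHKDC1 OE liver, a log2 difference of 0.26 ± 0.49 from the null values above. Top2a was at 0.587, 0.778 and 0.946 CPM, a difference of -0.74 ± 0.61. In both genes the groups overlapped. Mcm2 was at 3.52, 3.96 and 2.55 CPM and Cdk1 at 2.60, 1.27 and 1.16 CPM, inside the null range for Mcm2 and reaching just past both ends of it for Cdk1. E2f1 was at 6.20, 4.38 and 4.22 CPM, with only library 1 above the null range (0.35 ± 0.30), and Ccnb1 had a single read over the 3 libraries. At these counts, changes in the mitotic genes of liver were not detectable at this depth unless large.

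**Figure D2:**
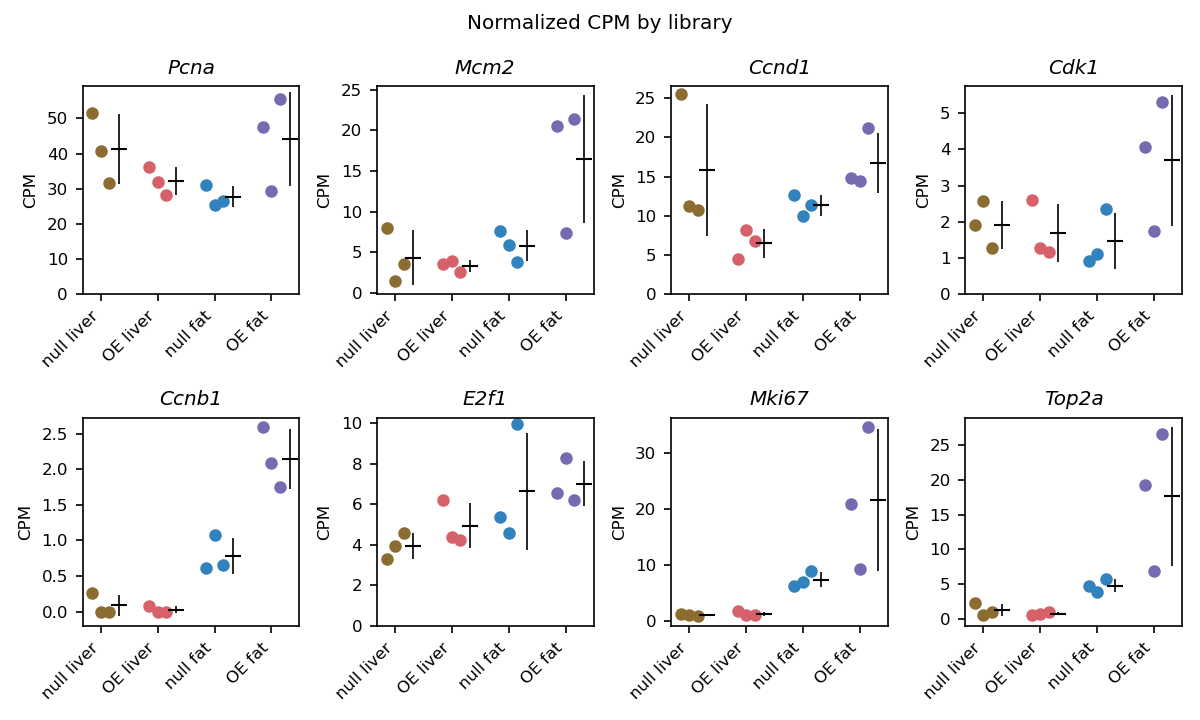
Normalised CPM per library (points) with mean ± SD (bars) of Pcna, Mcm2, Ccnd1, Cdk1, Ccnb1, E2f1, Mki67 and Top2a in the 4 groups. In hHKDC1 OE fat the points of Mcm2, Mki67 and Top2a lie apart, at 7.42, 9.30 and 6.92 CPM in library 2 and above 19 CPM in libraries 1 and 3.

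In fat, which that promoter does not target, 38 of the 40 members had a log2 difference above 0 between hHKDC1 OE and null, but none passed the test. All 40 were tested, 0 were called of 16380 genes, of which 0% were called in either direction, and the smallest adjusted p of a member was 0.133, in Cdt1 (edgeR's quasi-likelihood test, Benjamini-Hochberg). The median log2 difference of the members was 1.34 and that of all genes was -0.05. At an unadjusted p under 0.05 there were 27 members, all higher, where 11.3% of all genes were higher and 6.39% lower. That count was 0 higher and 1 lower of the 40 without hHKDC1 OE fat libraries 1 and 3, where 2.39% of all genes were higher and 2.65% lower. DESeq2 called 15 members, all higher, where it called 6.72% of all genes higher and 1.22% lower. Without a filter on low counts 6 members were called higher (2.42% of all genes), and with all 12 libraries in one fit 5 were (4.51%). In 21 members all 3 hHKDC1 OE libraries lay above all 3 null libraries and in 1, Cdc45, below (14.7% and 7.59% of all genes). With library size alone the median of all genes moved to 0.11 and again 0 members were called.

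Replication genes held the member with the smallest p. Cdt1, the licensing factor that loads the helicase, was at 1.69, 1.25 and 2.27 CPM in null fat and at 11.2, 3.82 and 11.7 CPM in hHKDC1 OE fat. All 3 hHKDC1 OE libraries were above the null range, library 2 by the least, and the log2 difference was 2.29 ± 0.49 (edgeR's quasi-likelihood test, adjusted p = 0.133). Mcm2 was at 20.6, 7.42 and 21.4 CPM against 7.60, 5.93 and 3.80 CPM in null fat (1.45 ± 0.45, adjusted p = 0.181 by the same edgeR test). Library 2 lay within the null range and the other two above it. Mcm3 was at 28.7, 9.04 and 28.3 CPM against 7.17, 5.40 and 6.72 CPM (1.71 ± 0.43), with all 3 above. Pcna was at 47.6, 29.3 and 55.6 CPM against 31.1, 25.5 and 26.5 CPM (0.61 ± 0.24), with library 2 again inside the null range. Cdc45, which travels with the same helicase, was at 7.15, 4.76 and 7.75 CPM against 8.34, 7.76 and 9.48 CPM, a log2 difference of -0.44 ± 0.26. It was the replication gene whose hHKDC1 OE libraries all lay under the null range. Of the chromatin genes, Uhrf1 was at 10.9, 3.06 and 17.9 CPM against 2.95, 2.45 and 3.11 CPM (1.83 ± 0.58).

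Among the mitotic genes, Mki67 was at 20.9, 9.30 and 34.8 CPM in hHKDC1 OE fat against 6.30, 7.003 and 8.98 CPM in null fat. The groups did not overlap, although library 2 cleared the highest null library by little (1.48 ± 0.45, edgeR's quasi-likelihood test, adjusted p = 0.175). Top2a was at 19.3, 6.92 and 26.6 CPM against 4.74, 3.84 and 5.76 CPM (1.82 ± 0.47), in the same order of libraries. The spindle checkpoint kinase Bub1 was at 1.99, 0.901 and 3.14 CPM against 0.130, 0.268 and 0.461 CPM, the largest member difference at 2.71 ± 0.67, and all 3 libraries were above. The role medians were 1.57 for the 8 mitotic kinases, checkpoint and anaphase genes and 1.31 for the 7 spindle, kinetochore and mitotic chromosome genes. They were 0.15 and 0.41 without hHKDC1 OE fat libraries 1 and 3.

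The cyclins differed among themselves. Ccna2, the cyclin of S phase and G2, had a log2 difference of 2.12 ± 0.51, whereas Ccne2 of the G1/S step was at -0.41 ± 0.32. Ccnb1 was at 2.60, 2.09 and 1.75 CPM against 0.608, 1.07 and 0.653 CPM (1.41 ± 0.41), all 3 above and library 2 between the others. Cdk1 was at 4.06, 1.73 and 5.31 CPM against 0.912, 1.12 and 2.34 CPM (1.27 ± 0.55), library 2 inside the null range. Ccnd1 was at 14.8, 14.4 and 21.2 CPM against 12.6, 9.99 and 11.4 CPM (0.50 ± 0.22). All 3 libraries were above and library 2 lay beside library 1. Of the transcription factors, E2f1 was at 6.55, 8.29 and 6.18 CPM, inside the null range of 4.59 to 9.94 CPM (0.02 ± 0.35), whereas Foxm1 was at 3.45, 2.56 and 4.29 CPM, all above the null libraries (0.62 ± 0.32). The nucleotide enzymes had a role median of 0.77 (0.18 without hHKDC1 OE fat libraries 1 and 3), from Rrm1 at 0.26 ± 0.31 to Rrm2 at 1.44 ± 0.51.

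**Figure D3:**
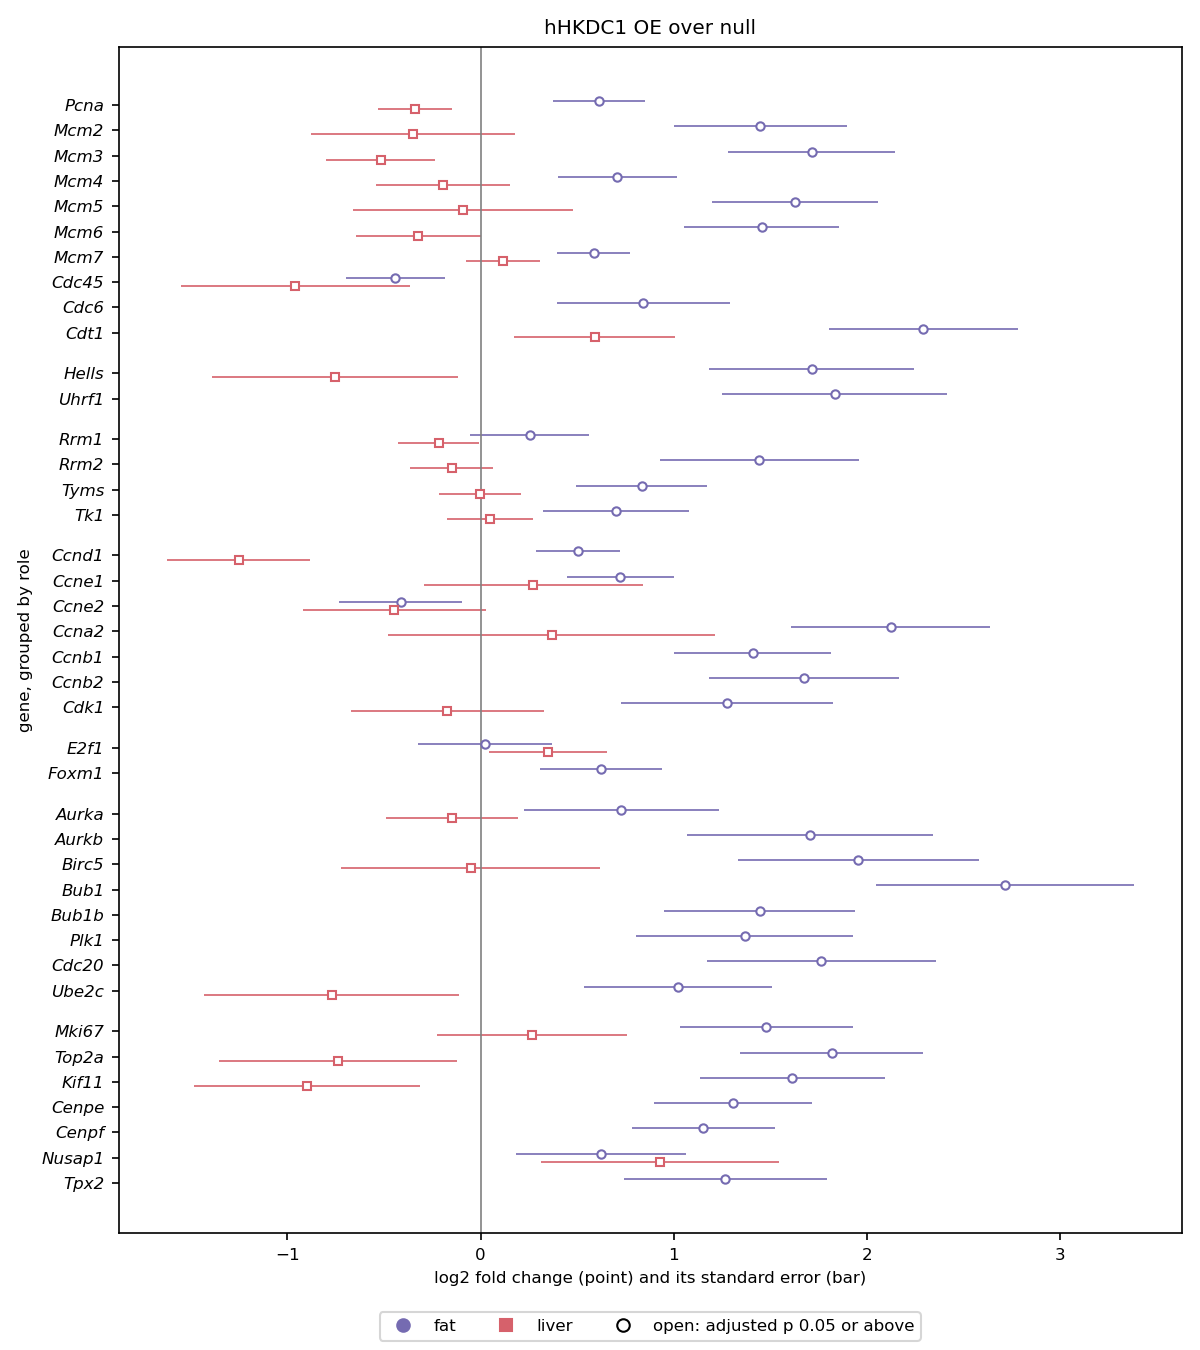
Log2 difference ± SE of hHKDC1 OE over null for the 40 members, grouped by role, in fat (circles) and, for the 27 tested there, in liver (squares). Open symbols mark an adjusted p of 0.05 or above, which holds for every point, and 38 of 40 fat points lie above 0 against 8 of 27 liver points.

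The hHKDC1 OE fat libraries 1 and 3 were high for most members and for the lymphocyte markers, whereas library 2 lay above null by the markers but inside or near the null range for many members. Library 2, with the least marker RNA of the 3, was the lowest of the 3 for 38 of 40 members, all but Ccnb1 and E2f1. By marker class, B cell markers came to 4.30, 2.28 and 4.15 CPM over the null fat libraries, and the hHKDC1 OE ones held 806, 46.4 and 615 CPM. T cell markers came to 10.5, 10.3 and 19.8 CPM in the null libraries and to 479, 39.9 and 514 CPM in the hHKDC1 OE ones. All 12 B cell markers and 10 of 12 T cell markers lay above the null range in all 3 hHKDC1 OE fat libraries. The B cell receptor component Cd79a had 5212, 260 and 1870 reads in hHKDC1 OE fat and 3, 8 and 9 in the null libraries, and Cd3e of the T cell receptor had 1071, 64 and 1041 against 23, 13 and 34. Of the 6 immature thymocyte markers, Rag1 and Ptcra had 0 reads in all 6 fat libraries and Rag2 had at most 3. Themis of that list had 287, 10 and 370 reads in hHKDC1 OE fat against 3, 2 and 16 in null fat. Dntt had 20, 3 and 28 against 8, 0 and 8, and Cd1d1 had 2898, 7215 and 2647 against 4719, 4925 and 7875. Of the 6, 0 lay above the null range in all 3 hHKDC1 OE fat libraries. The B cell markers Fcer2a and Spib had 0 reads in null fat libraries 1 and 2.

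Set over the null fat mean, the summed level of the members was 2.29, 1.15 and 2.68 in hHKDC1 OE libraries 1, 2 and 3, where the sum of the lymphocyte markers was 75.2, 5.05 and 66.1. Library 1 held slightly more marker RNA and library 3 more member RNA. Because 2 libraries lie far from the other 4, no correlation is given. By role, the ratios over the null mean were 2.90, 1.30 and 4.37 for spindle and mitotic chromosome genes, 3.22, 1.16 and 3.83 for mitotic kinases, checkpoint and anaphase genes, 1.73, 0.936 and 1.98 for nucleotide supply, and 1.14, 1.24 and 1.20 for the transcription factors. That last sum was carried by E2f1, while Foxm1 alone was at 1.62, 1.20 and 2.01, lowest in library 2.

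Library by library, 37, 21 and 37 of the 40 members were above the null range, where 37.1%, 29.4% and 37.8% of all genes were. The median ratio of a member to its null mean was 2.80, 1.21 and 3.68. Library 3 was the highest of all 6 fat libraries for 29 members, library 1 for 8, library 2 for 0, and a null library for 3. Without libraries 1 and 3 the log2 difference of the members had a median of 0.24, 33 of 40 were above 0 and 0 were called, with the lone library 2 assumed to vary like null fat. In that fit Mki67 was at 0.28 and Pcna at 0.04. Without library 2 instead, 23 members were higher (11.4% of all genes were higher and 7.53% lower), with a median of 1.61. These 23 included Pcna, Mcm2 to Mcm7, Cdt1, Mki67 and Top2a.

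**Figure D4:**
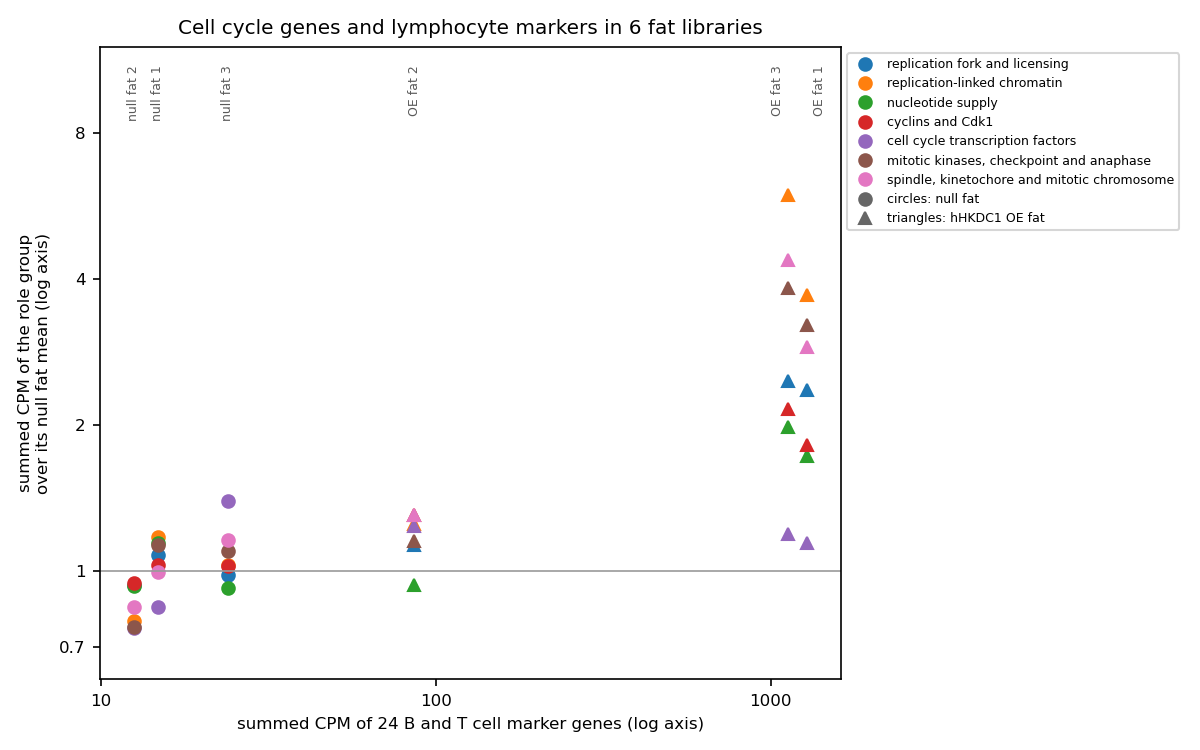
Summed CPM of each role group over its null fat mean (y axis, log scale) against the summed CPM of the 24 B cell and T cell markers (x axis, log scale) in the 6 fat libraries, null as circles and hHKDC1 OE as triangles. The null libraries sit at 12.5 to 24.0 CPM, hHKDC1 OE library 2 at 86.3 CPM, and libraries 1 and 3 at 1284 and 1129 CPM, where spindle genes stand at 2.90 and 4.37 times their null mean and the transcription factors at 1.14 and 1.20.

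Markers of other cells also varied over the fat libraries. The 8 macrophage markers summed to 667, 555 and 877 CPM with hHKDC1 OE against 387, 208 and 414 CPM in null fat. That sum was weighted to Lyz2, with 14356, 6676 and 13553 reads against 3472, 1566 and 3671. Cd163 had 170, 2516 and 190 reads against 1207, 684 and 1873, and Mertk 369, 729 and 369 against 634, 808 and 1287. The sum alone therefore does not show more macrophages in every hHKDC1 OE library. Skeletal muscle markers summed to 12410, 819 and 2034 CPM with hHKDC1 OE against 14420, 17460 and 404 CPM in null fat, and keratinocyte markers to 2.60, 30.0 and 3.97 CPM against 256, 14.7 and 102 CPM. Plasma cell markers were at 237, 168 and 217 CPM against 144, 141 and 154 CPM. Macrophage and plasma cell sums were above null in all 3 hHKDC1 OE libraries, as were 4 of 8 macrophage and 4 of 6 plasma cell markers taken singly, with 1 macrophage marker below null in all 3. Markers of myeloid precursors and neutrophils summed to 22.0, 9.01 and 6.69 CPM against 5.17, 5.93 and 4.38 CPM, with 3 of 8 above null in all 3 libraries. Germinal centre B cell markers summed to 86.3, 112 and 77.2 CPM against 92.1, 78.8 and 51.3 CPM, overlapping as a sum with 3 of 8 markers above. Muscle and keratinocyte sums varied within both groups, and 5 of 8 keratinocyte markers were below null in all 3 libraries. Adipose stromal cell markers summed to 481, 626 and 844 CPM against 822, 397 and 512 CPM, with 2 of 6 above null in all 3 libraries, and 3 of 10 hepatocyte and 1 of 8 adipocyte markers were below null in all 3. The part of any of these cells, lymphocytes included, in the member levels was not tested.

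In hHKDC1 OE mice, 27 of the 40 members were higher in fat than in liver, 2 were lower and 11 were not called (edgeR's quasi-likelihood test), where 31.2% of all 15817 genes tested were higher and 25.5% lower. The median log2 difference was 2.40 for the members and 0.12 for all genes. With library size alone 36 members were higher and 1 lower (61.2% and 12.3% of all genes, whose median became 1.11). Without hHKDC1 OE fat libraries 1 and 3, 8 members were higher and 3 lower (22.9% and 20.1% of all genes), 33 of 40 were above 0 and the median was 1.28. That fit has a single fat library, with no spread of its own, so its lower count comes with fewer samples as well as with less lymphocyte RNA. The treatment and the tissue comparisons use the same libraries and are not independent of each other.

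By role, 8 of 10 replication fork genes, both chromatin genes, 4 of 7 cyclins and Cdk1, 6 of 8 mitotic kinases, checkpoint and anaphase genes and 6 of 7 spindle genes were higher in hHKDC1 OE fat. In the same order, these counts were 1 of 10, 0 of 2, 2 of 7, 1 of 8 and 3 of 7 without hHKDC1 OE fat libraries 1 and 3. Top2a had a log2 difference of 4.37 ± 0.54 (edgeR's quasi-likelihood test, adjusted p = 3.39e-04), Mki67 of 3.93 ± 0.51, Tpx2 of 4.26 ± 0.65, Uhrf1 of 3.98 ± 0.72 and Mcm3 of 2.43 ± 0.43. For all of these every fat library lay above every liver library. Mitotic genes with few liver reads are given as ratios of normalised levels with exact 95% intervals for counting error: 86.8 for Ccnb1 (15.4 to 3449, from 1 liver read), 38.3 for Bub1 (10.4 to 319, from 2), 16.3 for Plk1 (8.15 to 38.2) and 16.8 for Foxm1 (8.38 to 39.2). Ccnd1 was higher in fat (1.27 ± 0.30), with 16.8 ± 3.82 CPM against 6.47 ± 1.90 CPM. Tk1 was lower in fat here too (-2.68 ± 0.26, edgeR's quasi-likelihood test, adjusted p = 1.12e-04), as was Tyms (-0.97 ± 0.30), although Tyms turned to 0.032 with library size alone. Pcna, at 44.2 ± 13.5 CPM in fat and 32.1 ± 3.97 CPM in liver, was not called (0.35 ± 0.23, adjusted p = 0.228 by the same edgeR test).

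**Figure D5:**
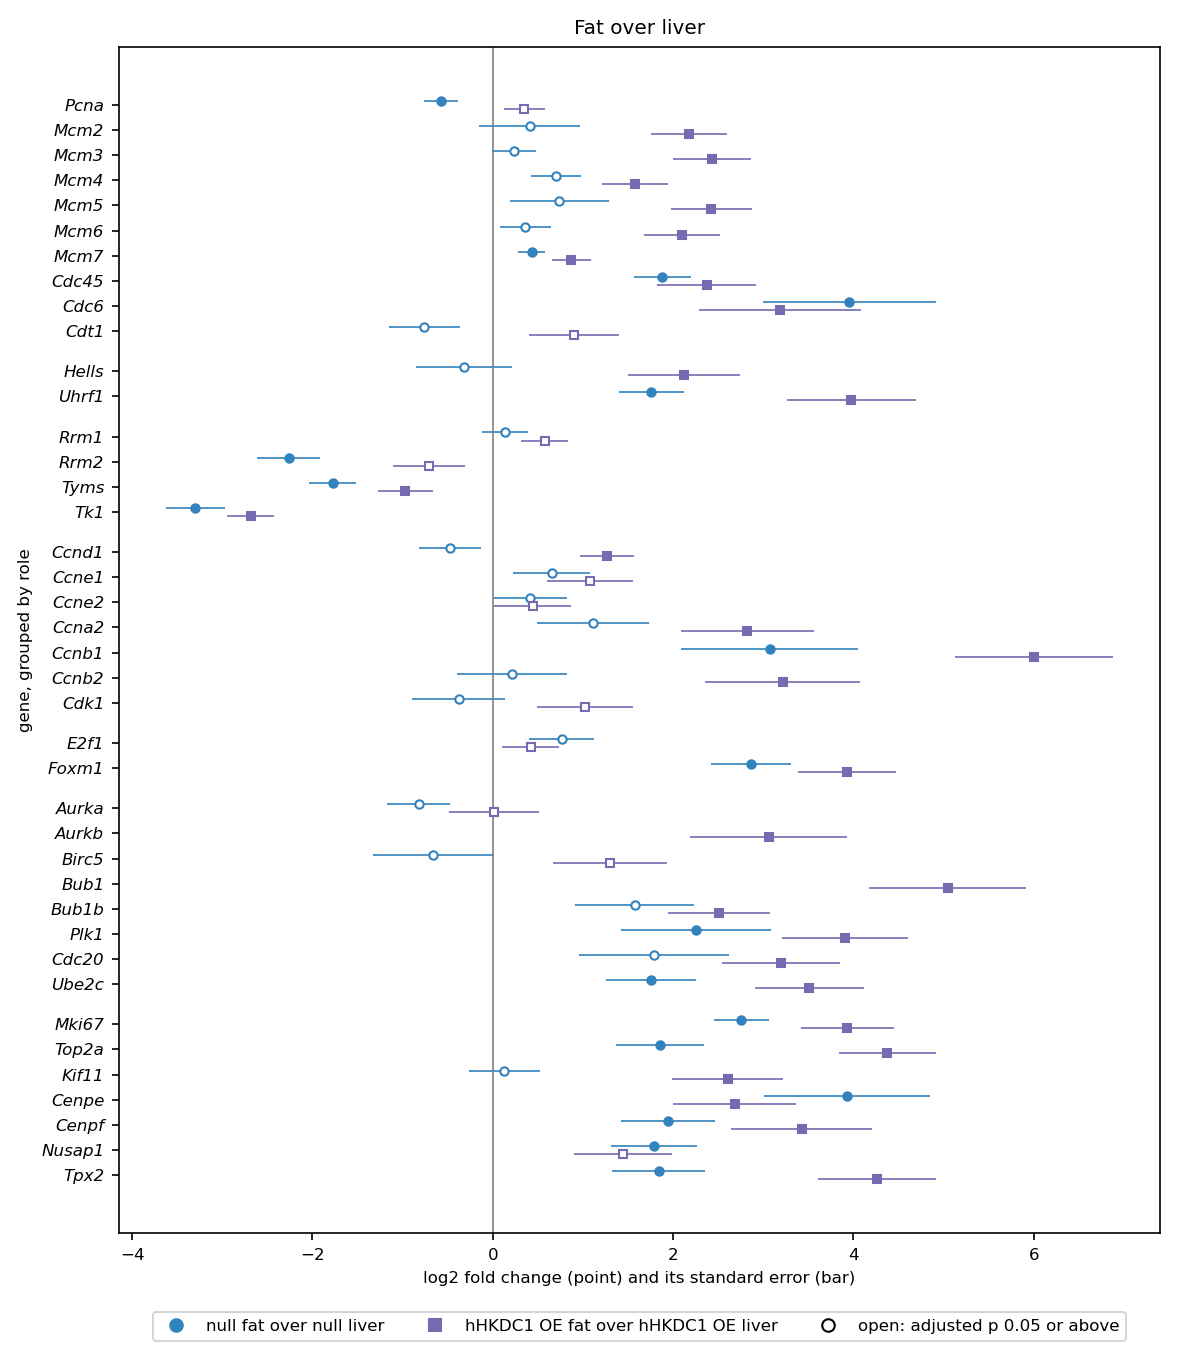
Log2 difference ± SE of fat over liver for the members, grouped by role, in null (circles) and hHKDC1 OE mice (squares), filled where the adjusted p is under 0.05. Tk1 and Tyms lie below 0 in both, and Mki67 and Top2a above 0 in both, with TMM scaling (with library size alone, Pcna, Cdt1, Hells, Ccnd1, Cdk1, Aurka and Birc5 in null mice and Rrm2 and Tyms in hHKDC1 OE mice change sign). Ccnb1, Cdc6, Cenpe, Aurkb and Bub1 had few liver reads, so their points are uncertain beyond the bars.

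The treatment effect was then compared between the tissues with all 12 libraries in one fit. The log2 difference in fat minus that in liver was above 0 for 36 of 40 members, with a median of 1.56 against 0.03 for all genes. None of the 40 passed (0% of 17070 genes in either direction, edgeR's quasi-likelihood test), 17 had an unadjusted p under 0.05, all higher in fat (9% of all genes were higher and 3.67% lower), and DESeq2 called 4 (Mcm3, Ccnd1, Top2a and Kif11, with 2.31% of all genes higher). Without a filter on low counts 4 were called as well (1.36% of all genes higher and 0.17% lower). The smallest adjusted p was 0.139, for Mcm3 (2.32 ± 0.53). For Ccnd1 the value was 1.85 ± 0.48 (edgeR's quasi-likelihood test, adjusted p = 0.155). Without hHKDC1 OE fat libraries 1 and 3, 29 of 40 were above 0, the median was 0.35 against -0.11 for all genes, 2 had an unadjusted p under 0.05, both higher (2.06% of all genes were higher and 4.15% lower), and 0 were called. Without library 2 instead, 7 were called higher (3.92% of all genes).

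To set the members beside the rest of the machinery, 94 other cell cycle genes were examined in 5 lists. Between null fat and null liver, 30 of 82 tested were higher and 18 lower (33.8% and 30.5% of all genes), and in hHKDC1 OE mice 43 of 89 were higher and 10 lower (31.2% and 25.5%), by edgeR's quasi-likelihood test. Without hHKDC1 OE fat libraries 1 and 3, 19 of the 89 were higher and 12 lower (22.9% and 20.1%). The CDK inhibitors gave 4 of 6 higher and 0 lower in null fat, among them Cdkn2c (4.26 ± 0.23), which blocks Cdk4 and Cdk6. D cyclin Ccnd2 (4.33 ± 0.21) and the pocket proteins Rb1 (2.75 ± 0.24) and Rbl1 (3.15 ± 0.39), which hold E2F in check, were also higher in null fat on the log2 scale, whereas the kinase Cdk6 (-2.43 ± 0.21) was lower.

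With hHKDC1 OE, 0 of 91 tested in fat and 0 of 70 in liver were called by edgeR's quasi-likelihood test. In fat 31 were higher and 2 lower at an unadjusted p under 0.05 (11.3% and 6.39% of all genes), and the median log2 difference was 0.41 against -0.05 for all genes. The 28 tested genes of mitosis had a median of 1.08, all above 0, with the kinetochore protein Ndc80 at 2.97 ± 0.72 and the chromosome motor Kif22 at 2.25 ± 0.44, whereas the 16 RB, E2F, MYB and DREAM genes had a median of 0.06 (-0.14 without hHKDC1 OE fat libraries 1 and 3, with 5 of 16 above 0). Without hHKDC1 OE fat libraries 1 and 3, the median of the 91 was 0.04, with 2 higher and 1 lower at an unadjusted p under 0.05 (2.39% and 2.65% of all genes), and that of the mitosis genes was 0.22, with 17 of 28 above 0. The G1 kinase Cdk4 was at 0.98 ± 0.22 and the mitosis-delaying kinase Wee1 at -0.96 ± 0.21. In liver, 5 of the 70 had an unadjusted p under 0.05, 2 of them higher (3.89% of all genes were higher and 3.05% lower). Cdkn1a, the p53-induced CDK inhibitor, was at 22.0 ± 19.9 CPM in null and 2.37 ± 1.14 CPM in hHKDC1 OE liver (-3.18 ± 0.64, edgeR's quasi-likelihood test, adjusted p = 0.355). Its null libraries spread about as widely as their mean.

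The promoter letters were set beside the values as a description. In fat, the 9 members with an E2F match had a median log2 difference of 1.63 between hHKDC1 OE and null and the 15 with a CHR match had 1.44, while the other tested genes with a match had medians of 0.05 (498 genes) and -0.01 (1939 genes). The 11 members with neither an E2F nor a CHR match had a median of 0.72 and all 33 members with a promoter one of 1.41. Without hHKDC1 OE fat libraries 1 and 3 the medians were 0.24 for E2F, 0.21 for CHR, 0.23 for neither and 0.24 for all 33. Between null fat and null liver the medians were 0.36 for the 9 members with an E2F match and 1.66 for the 14 tested with a CHR match, against 0.13 for the 11 with neither, 0.54 for the 32 tested members with a promoter, and 0.07 (477 genes) and 0.05 (1828 genes) for other tested genes.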

How the data were processed

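The submitters' processing notes name STAR 2.5, HTSeq 0.6.1 and DESeq2 2. The authors deposited raw gene counts, and in a separate table FPKM, which the authors scaled by gene length and by size factors over all 12 libraries. The study's methods call the libraries not strand-specific and name a human reference, while the gene identifiers are mouse, and all 40 members lie at GENCODE vM21 (GRCm38) coordinates. Columns of the authors' own comparisons were not used.

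Counts were fitted in R 4.3.3 with edgeR 4.0.16 (glmQLFit and glmQLFTest, TMM, filterByExpr with a minimum count of 10), with Benjamini-Hochberg adjustment over all genes that passed the filter and a call at 0.05. Each comparison used only its 6 libraries, and the comparison of treatment effects used all 12. Groups followed the sample titles. TMM factors were 0.678 to 0.816 in liver and 1.27 to 1.44 in fat. DESeq2 1.42.0, other scalings, no filter, a replicate block and leaving out libraries were alternatives. Intervals and ratios for low counts cover counting error only. The scripts were tested on simulated data.

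The members and the marker and pathway lists were chosen with earlier results of these data known. All 40 members could be named, 8 of them (Mki67, Top2a, Pcna, Ccnd1, Cdk1, Mcm2, Ccnb1 and E2f1) in every library. Of the other cell cycle lists, up to 3 genes with the smallest p per list and comparison could be named, and Cdkn1a in liver. The comparisons were made with all libraries, and those without hHKDC1 OE fat libraries 1 and 3 are named as such.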

Additional observations from a re-analysis of the deposited data

Results flagged for a closer look

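Mcm3, a subunit of the replicative helicase, and Ccnd1, the G1 cyclin, lay on opposite sides of null in the 2 tissues: every hHKDC1 OE library lay above every null library in fat and below every null library in liver. The difference between the treatment effects (fat minus liver, log2) was 2.32 ± 0.53 for Mcm3 (edgeR's quasi-likelihood test, adjusted p = 0.139) and 1.85 ± 0.48 for Ccnd1 (adjusted p = 0.155 by the same edgeR test), so neither passed, while DESeq2 called both. For Mcm3 the hHKDC1 OE fat libraries were at 28.7, 9.04 and 28.3 CPM, the high libraries being those rich in lymphocyte marker RNA. For Ccnd1 they were at 14.8, 14.4 and 21.2 CPM, with library 2, the poorest in that RNA, close beside library 1. Without hHKDC1 OE fat libraries 1 and 3, an alternative chosen after seeing the data, the difference between the treatment effects was 0.95 for Mcm3 and 1.54 for Ccnd1 (edgeR's quasi-likelihood test, adjusted p = 0.803 and 0.755). The part of lymphocyte RNA in either difference was not tested further.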

How the results depend on the processing

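Counts of called members are compared with those of edgeR with TMM. In fat, hHKDC1 OE against null gave 0 calls, but 15 with DESeq2, 6 without a filter on low counts and 5 with all 12 libraries in one fit. Without a filter, liver gave 1. The comparison of treatment effects gave 4 with DESeq2 and 4 without a filter. With library size alone, 29 members were called between null fat and null liver in place of 18, the summed level of null fat over null liver became 1.67 in place of 0.898, Pcna turned to 0.32 there, and Tyms turned to 0.032 between the hHKDC1 OE tissues. Uncalled members that also changed sign were Cdt1, Hells, Ccnd1, Cdk1, Aurka and Birc5 between the null tissues, Rrm2 between the hHKDC1 OE tissues, and Mcm5, Tyms and Birc5 between the liver groups. Leaving out hHKDC1 OE fat libraries 1 and 3, an alternative chosen after seeing the data, left 11 calls between the hHKDC1 OE tissues in place of 29, with a median log2 difference of 1.28 in place of 2.40; the fat group then held 1 library, assumed to vary like liver. Leaving out 1 library at a time gave 0 to 23 calls in fat, 0 to 0 in liver, 13 to 18 between null tissues, 26 to 35 between hHKDC1 OE tissues and 0 to 7 for the treatment effects, with 23, 35 and 7 all reached without hHKDC1 OE fat library 2. Of the 18 calls between the null tissues, 11 held in all 12 alternatives, and the others in 11 (Cenpf), 10 (Tpx2 and Ube2c), 8 (Ccnb1), 6 (Pcna and Plk1) and 5 (Mcm7). Between the hHKDC1 OE tissues the Tyms call ended without a filter and without any 1 of the hHKDC1 OE liver libraries or hHKDC1 OE fat library 1. The Hells call ended without hHKDC1 OE liver library 1 or 3 or hHKDC1 OE fat library 3. The Aurkb call ended without hHKDC1 OE liver library 1 or hHKDC1 OE fat library 1, and the Cdc6 call without hHKDC1 OE liver library 2 or hHKDC1 OE fat library 1. The cause of these changes was not tested. In liver, 13 members, most of them mitotic genes, had too few reads for a test, which limits that comparison to 27 members.

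No source used here says that the replicate numbers pair the samples. Same-numbered libraries correlated at -0.147 to 0.0375 between the fat groups and 0.0938 to 0.219 between the liver groups. They correlated at 0.0381 to 0.254 between the null tissues and 0.0211 to 0.0683 between the hHKDC1 OE tissues. Differently numbered ones ran from -0.206 to 0.0748 between the liver groups and from -0.201 to 0.0323 between the null tissues. In both, every same-numbered value was higher. The values overlapped between the fat groups (-0.241 to 0.307) and the hHKDC1 OE tissues (-0.17 to 0.159). Whether the numbers pair mice was not tested further. With the number as a replicate block, the calls were 0 in fat, 0 in liver, 17 between null tissues, 29 between hHKDC1 OE tissues and 0 for the treatment effects.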
